A study of Mus musculus with 3 samples.

Results

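The genes described here encode the proteins of the mitochondrial ribosome. The rule took them by symbol alone, as Mrpl or Mrps followed by a number and at most one letter from a to c. No measured value entered the rule, but the set was chosen with earlier results of these data known. There were 77 such genes among 23282 gene rows, and all 77 of 77 passed the filter on low values that left 12770 rows to test. By the unified naming of ribosomal proteins, 50 belonged to the large subunit, 26 to the small subunit and 1, Mrps36, to the 2-oxoglutarate dehydrogenase complex instead. Mrps30 and Mrps18a carry small subunit symbols but sit in the large subunit, and were counted there.

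CD4 T cells were taken from C57BL/6 mice, out of spleen and lymph nodes, and given antibodies to CD3 and CD28 at 2 µg/ml each for 72 h. CM was RPMI with ordinary serum, DM was RPMI without amino acids and with dialyzed serum, and DM+Met was DM to which 30 µM methionine had been added back. All 3 groups shared the strain, the activation and the time in culture. The labels name no genetic change and no age. The study's methods name the mice it bought as C57BL/6J. They give the sex as female and an age range in weeks, unless otherwise specified. For each medium, 2 libraries were measured. The study describes the 2 as biologically independent, but the labels do not tell what the 2 files per medium stand for, so the p-values measure the spread between these libraries. The study reports that DM still held some methionine, so methionine was reduced in DM and not absent. The comparisons ask how T cell RNA differed when the base medium lacked amino acids and the serum was dialyzed, and when methionine alone was added to DM. Between CM and DM, the effects of the base medium and of the serum cannot be told apart.

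The mitochondrial ribosome translates the few mRNAs of the mitochondrial genome, all of them for subunits of the respiratory chain and the ATP synthase. Its own proteins are encoded in the nucleus, made in the cytosol and imported. Many have counterparts in bacterial ribosomes, and the others exist only in mitochondria, where some tie the ribosome to the inner membrane. Activated T cells are known for raising mitochondrial mass and mitochondrial translation as they begin to grow and divide.

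Libraries held 8504742 to 12377285 reads, counted near the 3′ ends of transcripts, so values are a count of transcripts and were not divided by length. Levels are given as CPM (reads scaled to a common depth, and by TMM factors so that the bulk of genes match between libraries), and changes as differences of log2(CPM + 1). Reads of the ribosomal RNA precursor row Rn45s took 31.0 to 32.9% of a CM library, 37.2 to 38.3% of a DM library and 15.5 to 20.1% of a DM+Met library, and changes that involve DM+Met depended on the scaling. The CD4 T cell markers were detected for 8 of 8 genes, and their summed level ran from 1463 to 1856 CPM over the 6 libraries, with both ends in DM. The 7 B cell markers summed to 104 to 110 CPM in CM, against 79.2 to 80.2 in DM and 62.4 to 73.9 with methionine, with Pax5 at 0 reads in all 6 libraries. The 6 CD8 T and NK cell markers summed to 73.5 to 82.4 CPM in CM, against 40.0 to 42.8 in DM and 35.9 to 49.8 with methionine, and the 8 myeloid markers to 44.2 to 51.1, 47.5 to 76.4 and 67.5 to 91.1, none at 0 reads throughout. The B cell sums and the CD8 T and NK cell sums were lower in both amino acid poor media than in CM. The CD4 T cell sums overlapped between media. The myeloid sums of DM overlapped both others, while those of DM+Met lay above CM. Single markers did not all follow these sums. Of the CD4 T cell markers, 2 were called lower and 2 higher in DM than in CM (limma, adjusted p below 0.05). Of the B cell markers, 1 was called lower and 0 higher. Yet Ms4a1, a B cell marker, was at 9.11 and 5.51 CPM in CM and at 14.7 and 15.8 in DM. Of the CD8 T and NK cell markers 1 was called lower, and of the myeloid markers 1 higher. Most of the CD8 T and NK cell sum in CM was Cd8a, at 34.3 and 41.0 CPM, and Cd8b1, at 32.1 and 33.2. The NK cell marker Klrb1c went the other way, with 0 reads in both CM libraries. It was at 1.73 and 1.94 CPM in DM and at 3.77 and 2.86 in DM+Met. Between DM+Met and CM, 1 CD8 T and NK cell marker was called lower and 1 higher (limma, adjusted p below 0.05). The part of these cell types in the results below was not tested. In bulk RNA, fewer cells of a type and less RNA per cell cannot be told apart.

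The promoters of 3 genes are printed first, namely those whose lower level in DM held under the most alternative analyses among genes with a promoter entry, so that the sequence stands beside the values. They run from 250 bases before to 50 bases after the start that RefSeq lists first on GRCm38.p6, in the direction of the gene. Capitals mark letters of the ETS motif, CCGGAAG or its complement CTTCCGG, to which the GABP factor of mitochondrial genes is known to bind.
Mrpl45 (chr11:97315466-97315765, plus strand): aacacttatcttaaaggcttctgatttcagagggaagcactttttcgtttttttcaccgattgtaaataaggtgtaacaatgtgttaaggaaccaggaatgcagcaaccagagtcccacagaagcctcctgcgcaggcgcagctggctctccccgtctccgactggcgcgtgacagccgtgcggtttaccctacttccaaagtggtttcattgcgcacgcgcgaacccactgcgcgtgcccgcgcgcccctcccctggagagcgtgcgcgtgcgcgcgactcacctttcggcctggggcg
Mrpl18 (chr17:12916042-12916341, minus strand): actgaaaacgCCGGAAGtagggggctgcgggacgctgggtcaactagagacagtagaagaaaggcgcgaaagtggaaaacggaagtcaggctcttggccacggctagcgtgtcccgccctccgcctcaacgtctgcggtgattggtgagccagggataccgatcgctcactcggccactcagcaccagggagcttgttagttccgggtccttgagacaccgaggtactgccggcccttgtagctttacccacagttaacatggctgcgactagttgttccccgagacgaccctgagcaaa
Mrps16 (chr14:20393441-20393740, minus strand): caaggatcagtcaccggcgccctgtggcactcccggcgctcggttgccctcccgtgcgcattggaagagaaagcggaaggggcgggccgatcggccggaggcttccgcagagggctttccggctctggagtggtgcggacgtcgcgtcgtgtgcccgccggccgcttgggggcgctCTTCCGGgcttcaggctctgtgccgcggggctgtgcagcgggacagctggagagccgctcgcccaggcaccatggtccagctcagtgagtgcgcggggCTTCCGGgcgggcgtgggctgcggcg
The window of Mrpl18 held the motif once, 240 bases before the start, that of Mrps16 held it 2 times on the other strand, with first letters 74 bases before the start and at base 25 after it, and that of Mrpl45 did not hold it. In GENCODE, Mrpl45 starts at the same base as in RefSeq, but Mrpl18 and Mrps16 start 254 and 144 bases farther upstream, so the whole Mrpl18 window and both motifs of Mrps16 lie inside those genes as GENCODE annotates them.

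The summed level of the 77 genes was lower in DM than in CM. It was 3140 and 3153 CPM in CM, 2278 and 2271 under DM and 2462 and 2412 once methionine was added. Both libraries of DM and both of DM+Met lay below both of CM, and DM+Met lay above DM. The means were 3147 ± 9.56 CPM for CM, 2274 ± 5.03 for DM and 2437 ± 35.3 for DM+Met (SD, n = 2 each), so that DM held 72.3% and DM+Met 77.4% of the CM level. The large subunit genes summed to 2164 ± 1.47, 1459 ± 28.4 and 1629 ± 26.2 CPM in the order CM, DM and DM+Met, and the small subunit genes to 962 ± 7.50, 807 ± 32.0 and 798 ± 6.73 CPM (SD, n = 2 each). No test was run on these sums, since the genes were chosen with results of these data known. As a share of all reads of a library, the 77 genes took 0.282 and 0.290% in CM, against 0.214 and 0.208% in DM and, with methionine, 0.301 and 0.281%, so on this unscaled measure DM+Met overlapped CM. With Rn45s reads left out of the total, the shares were 0.420% in both CM libraries, 0.340 and 0.337% in DM and, with methionine, 0.357 and 0.351%.

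**Figure D1:**
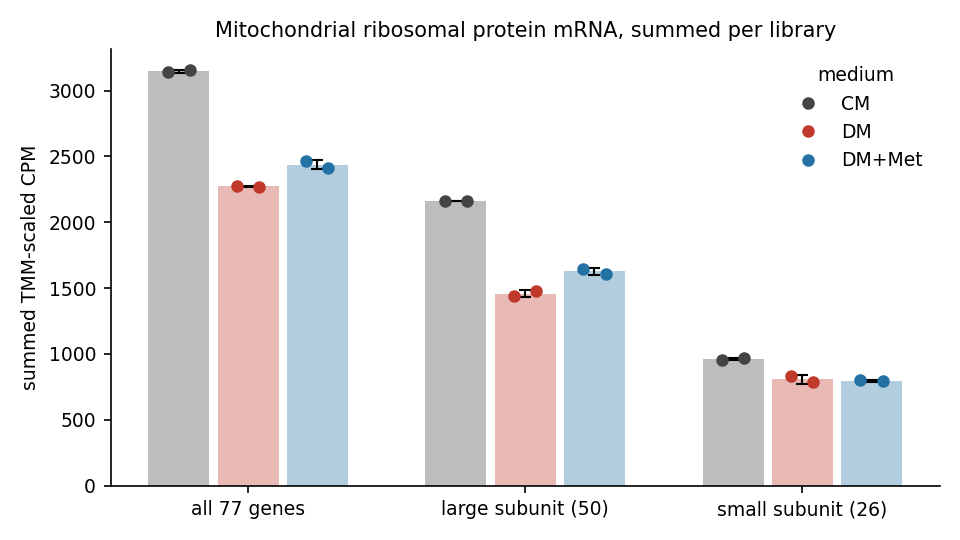
Summed TMM-scaled CPM of all 77 genes, the 50 large subunit genes and the 26 small subunit genes (y axis) in CM, DM and DM+Met. Bars are means, error bars the SD, and points the 2 libraries of a medium. The sum over all 77 genes was 3140 and 3153 in CM and 2278 and 2271 in DM. DM+Met, at 2462 and 2412, lay below CM on this scale but overlapped it as a share of unscaled reads.

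Against CM, 13 of the 77 genes were lower in DM and 0 higher at an adjusted p below 0.05 (limma on the log2 values of all 12770 rows, Benjamini-Hochberg, two-sided). Of all tested rows 9.07% were called lower and 7.8% higher, so 13 of 77 was above the background on the lower side, at 16.9%, and below it on the higher side. With both directions counted, 2154 of the 12770 rows were called, about the same share as 13 of 77. The median SE was 0.32 for the 77 and 0.44 over all tested rows. At an unadjusted p below 0.05, 22 of the 77 were lower and 0 higher. The median log2 change of the 77 was -0.27, beside 0.07 over all tested rows, and 61 of 77 estimates lay below 0, or 79.2% against 47.2% of all rows. For 35 of the 77 both DM libraries lay below both CM libraries and for 5 they lay above, where 26.2% and 27.9% of all tested rows did so. The lower direction of the median held when reads were scaled by library totals (-0.24) and by totals without Rn45s (-0.12). The count of 13 rested on all 6 libraries. With any library left out fewer were called, among the 77 and among all rows. Without the second DM library, some of those called were not among the 13. Of the 13, only Mrpl45 and Mrpl18 kept their call each time. Mrps16 and Mrpl1 kept it in some of these fits and the others in none, though all 13 estimates stayed below 0.

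**Figure D2:**
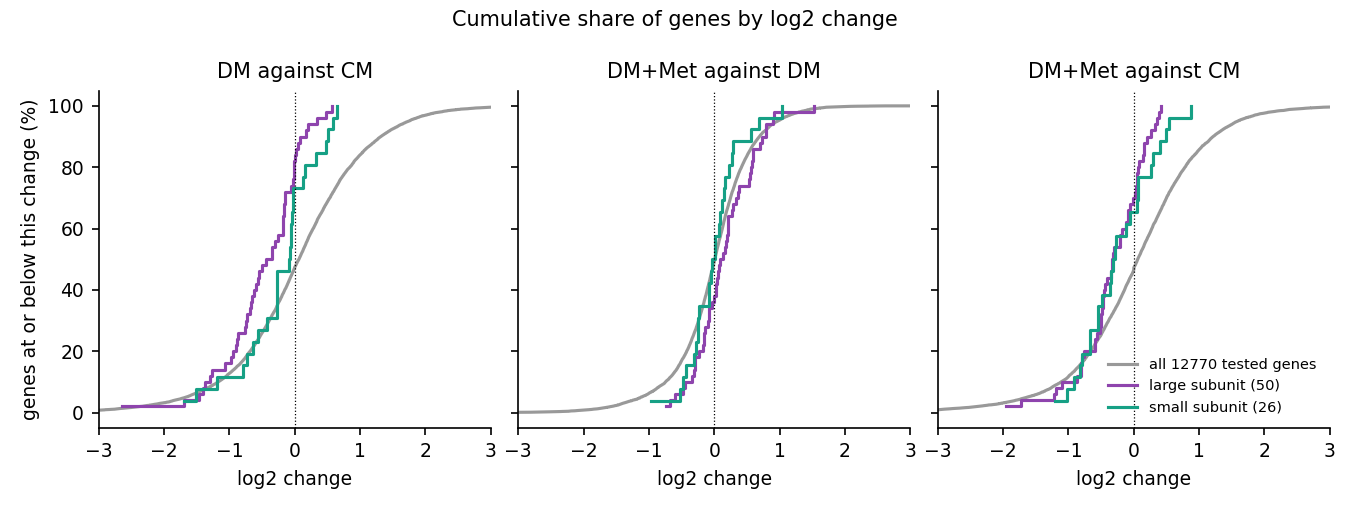
Cumulative share of genes (y axis, %) at or below each log2 change (x axis) in the 3 comparisons, for the 50 large subunit genes, the 26 small subunit genes and all 12770 tested genes. In both comparisons with CM the middle of the large subunit curve lies left of that for all genes (medians -0.39 and -0.32, against 0.07 and 0.06), while their lower tails meet. The small subunit medians are -0.08 for DM and -0.30 for DM+Met against CM. When reads are scaled by library totals the median of all 77 members for DM+Met against CM turns to 0.06, still below the 0.41 of all genes.

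In the large subunit, 10 of 50 genes, or 20%, were called lower in DM than in CM and 0 higher, with a median change of -0.39. In the small subunit, 3 of 26, or 11.5%, were called lower and 0 higher, with a median of -0.08, which is near the 9.07% of all rows. The difference between the subunits was not tested. Among large subunit genes, 6 of 30 with a bacterial counterpart and 4 of 20 found only in mitochondria were called lower, with medians of -0.43 and -0.39. Among small subunit genes the counts were 1 of 16 and 2 of 10, with medians of -0.17 and -0.06, and with so few calls nothing is read from these shares.

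Mrpl45 encodes mL45, which lies by the exit of the nascent chain tunnel and ties the ribosome to the inner membrane. The gene lies at 97315716 to 97329920 on the plus strand of chromosome 11 (GRCm38, GENCODE). It stood at 181 and 173 CPM in CM, at 59.0 and 49.4 in DM and at 54.3 and 51.4 in DM+Met. Both amino acid poor media lay far below CM, and DM and DM+Met overlapped. The log2 change from CM to DM was -1.69 ± 0.20 (SE, adjusted p = 0.000772, limma), and DM held 30.6% of the CM level. By mean level it ranked 1 of the 77 in CM, 9 under DM and 11 with methionine, and its call held in each of 10 alternative analyses and with each of the 6 libraries left out.

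Mrpl18 encodes uL18m, a protein of the central protuberance, the part of the large subunit that faces the head of the small one. It lies at 12911349 to 12916345 on the minus strand of chromosome 17. Its levels were 131 and 117 CPM in CM, 45.0 and 43.6 under DM and 59.0 and 49.0 once methionine was added. The 3 media did not overlap, with DM lowest. The change from CM to DM was -1.46 ± 0.21 (SE, adjusted p = 0.00206, limma), and it too held in each of the 10 alternatives and with each library left out.

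Mrpl1, which encodes uL1m of the stalk by the tRNA exit, was at 34.0 and 39.4 CPM in CM, at 1.63 and 12.7 in DM and at 9.04 and 8.48 in DM+Met. The 2 DM libraries lay far apart, at 16 and 144 reads, yet both lay below CM. The change was -2.65 ± 0.67 (SE, adjusted p = 0.0254, limma), at -1.46 without the first DM library and -3.84 without the second, and the call held in 1 of the 6 fits that each left out a library. Mrpl10 encodes uL10m, the base of the stalk that recruits translation factors, and was at 44.1 and 43.4 CPM in CM, 15.1 and 20.8 under DM and 22.3 and 17.7 once methionine was added. DM and DM+Met overlapped below CM, with a change from CM to DM of -1.26 ± 0.31 (SE, adjusted p = 0.0240, limma). Mrpl12 encodes bL12m, which binds that base and is also known to bind the mitochondrial RNA polymerase. It was at 59.9 and 54.1 CPM in CM, at 31.2 and 30.4 in DM and at 33.8 and 28.0 in DM+Met. Again DM and DM+Met overlapped, and the change from CM to DM was -0.87 ± 0.25 (SE, adjusted p = 0.0415, limma). Genes on the opposite strand, Gm11574 and Gm16755, have annotated exons that overlap the last exon of Mrpl10 and Mrpl12, within its last 500 bases. Of the 77 members, 11 have such an overlap on either strand and 9 have one on the opposite strand. Genes that lie farther downstream were not looked for. Mrps25, Mrps34 and Mrps18b are also among these 9. Whether counting used strand is not given in the sources used here.

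The other 5 large subunit genes that fell in DM ranged from -1.41 to -0.65. Mrpl42, for the mitochondria-only protein mL42, had 40.1 and 35.5 CPM in CM, 13.8 and 13.4 under DM and 30.4 and 23.3 once methionine was added. Its media did not overlap and DM+Met lay between the others, with a change from CM to DM of -1.41 ± 0.31 (SE, adjusted p = 0.0141, limma). Mrpl30 (uL30m) was at 102 and 109 CPM in CM, at 62.7 and 51.5 in DM and at 76.5 and 94.2 in DM+Met. Mrpl57 (mL63) was at 66.5 and 56.2 CPM in CM, 33.3 and 29.4 under DM and 41.9 and 50.0 once methionine was added. Both genes showed the same order without overlap, DM lowest and DM+Met between, at -0.88 ± 0.21 and -0.94 ± 0.24 from CM to DM (SE, adjusted p = 0.0194 and 0.0268, limma). Mrps30, for mL65, a large subunit protein despite its symbol, was at 59.8 and 62.1 CPM in CM, at 25.6 and 32.1 in DM and at 33.9 and 19.2 in DM+Met. DM+Met spanned the DM values, and the change from CM to DM was -1.06 ± 0.31 (SE, adjusted p = 0.0445, limma). Mrpl34, for bL34m, had the highest mean of the 77 over the 6 libraries, at 120 and 107 CPM in CM, 68.6 and 75.2 under DM and 130 and 110 once methionine was added. It was lowest in DM, with DM+Met overlapping CM, at -0.65 ± 0.19 from CM to DM (SE, adjusted p = 0.0410, limma). Calls near the threshold depended most on the analysis: those of Mrps30 and Mrpl34 held in 3 of 10 alternatives and that of Mrpl12 in 5 of 10.

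In the small subunit, Mrps16, Mrps35 and Mrps27 fell in DM. Mrps16 encodes bS16m, a counterpart of a bacterial protein that is needed for assembly of the small subunit, and lies at 20389304 to 20393634 on the minus strand of chromosome 14. It was at 99.2 and 83.9 CPM in CM, at 41.4 and 23.7 in DM and at 54.0 and 48.0 in DM+Met. The media did not overlap, DM was lowest, and the change from CM to DM was -1.51 ± 0.28 (SE, adjusted p = 0.00706, limma). Mrps35 (mS35) was at 44.4 and 42.0 CPM in CM, 16.4 and 20.5 under DM and 24.5 and 20.5 once methionine was added, a change from CM to DM of -1.19 ± 0.30 (SE, adjusted p = 0.0240, limma). Mrps27 (mS27, which carries RNA-binding pentatricopeptide repeats) was among the 5 least abundant of the 77, at 13.7 and 14.1 CPM in CM, at 3.37 and 3.80 in DM and at 10.9 and 6.38 in DM+Met. Both genes had their lowest mean in DM, though for Mrps35 the nearest libraries of DM and DM+Met were both at 20.5 CPM. For Mrps27 the change was -1.70 ± 0.49 (SE, adjusted p = 0.0422, limma), a call that held in 4 of 10 alternatives.

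**Figure D3:**
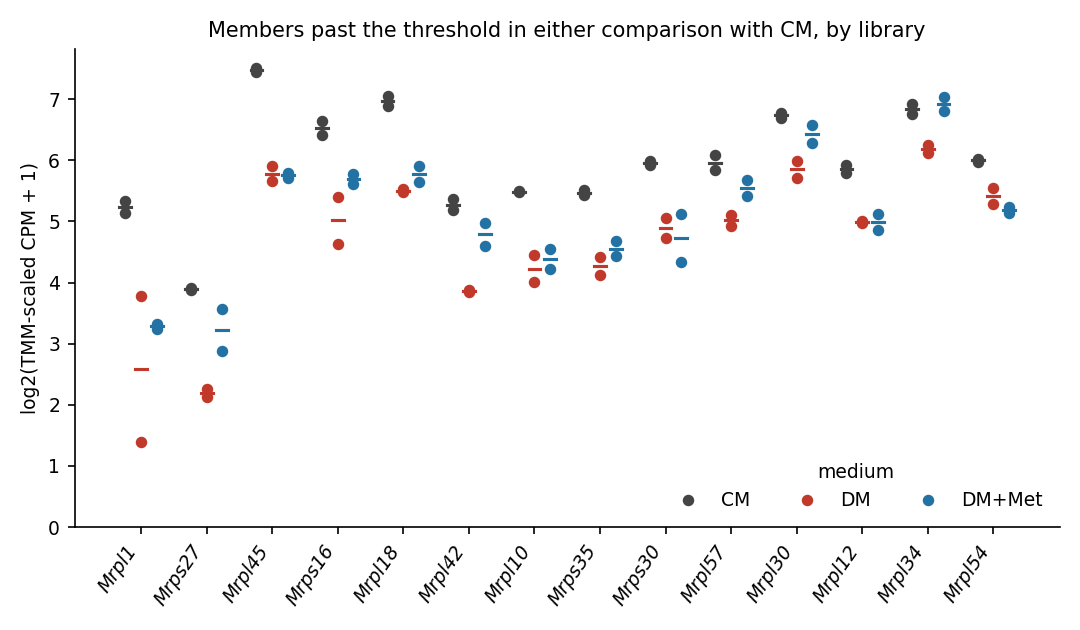
Level of the 14 genes called in either comparison with CM, as log2(TMM-scaled CPM + 1) on the y axis, ordered by the change from CM to DM. Each point is 1 library and each short line the mean of the 2 libraries of a medium. Both DM libraries lie below both CM libraries for all 14 genes, and the 2 DM libraries of Mrpl1, at 1.63 and 12.7 CPM, lie farthest apart.

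Other members known for a special place did not pass the threshold between DM and CM. The 3 paralogs related to bacterial S18 now sit in different places. Mrps18a (mL66 of the large subunit) was at 19.3 and 26.1 CPM in CM and 9.28 and 13.0 in DM, a log2 change of -0.97 ± 0.39 (SE, adjusted p = 0.115, limma). Mrps18b (mS40) was at 14.3 and 17.7 CPM in CM and 19.7 and 16.2 in DM, with a change of 0.15 ± 0.37, and Mrps18c (bS18m) at 24.3 and 17.5 in CM and 18.7 and 15.3 in DM, with -0.28 ± 0.34. For the last 2 the groups overlapped, and the differences among the paralogs were not tested. Mrps36, of the dehydrogenase complex, was at 20.0 and 20.9 CPM in CM, 9.08 and 7.06 under DM and 11.5 and 8.15 once methionine was added, a change from CM to DM of -1.25 ± 0.42 (SE, adjusted p = 0.0693, limma). Its DM libraries lay below CM, but the change missed the threshold. Mrpl32, whose protein is matured by the m-AAA protease before assembly, changed by -0.18 ± 0.32 with a 95% interval from -0.89 to 0.54. Mrpl44, a protein with an RNase III fold, changed by -0.43 ± 0.36 (interval -1.24 to 0.37). Mrps12, for uS12m of the decoding centre, changed by -0.05 ± 0.34 (interval -0.81 to 0.71), and the intervals of these 3 genes reached from lower to higher levels. Mrps34 changed by -0.08 ± 0.27 and Mrps22 by -0.73 ± 0.39 (adjusted p = 0.864 and 0.228, limma). The direction of Mrps12 and Mrps34 turned to 0.10 and 0.07 under library totals without Rn45s.

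The 77 genes had a mean level between 5.78 and 102 CPM over the 6 libraries, with a median of 27.2 CPM beside 16.1 CPM over all tested rows, and 62 of 77 lay above that value. After Mrpl34 and Mrpl45, the highest means over the 6 libraries were those of Mrps25 (mS25), Mrpl33 (bL33m) and Mrpl30 at 89.9, 83.2 and 82.6 CPM. The order differed between media, with Mrpl45 first in CM, Mrps25 under DM and Mrpl34 once methionine was added. Mrps25 was at 77.5 and 102 CPM in CM and 71.8 and 105 in DM, and Mrpl33 at 88.4 and 108 in CM and 71.3 and 87.6 in DM. Neither passed the test, with changes of -0.03 ± 0.24 and -0.30 ± 0.21 (SE, adjusted p = 0.940 and 0.363, limma), and that of Mrps25 turned to 0.12 under library totals without Rn45s. The least abundant were Mrpl21 (bL21m), Mrps27, Mrpl55, Mrps11 (uS11m) and Mrpl15 (uL15m), at 5.78 to 12.6 CPM. Apart from Mrps27, these had estimates between 0.20 and 0.57 from CM to DM, and none was called.

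**Figure D4:**
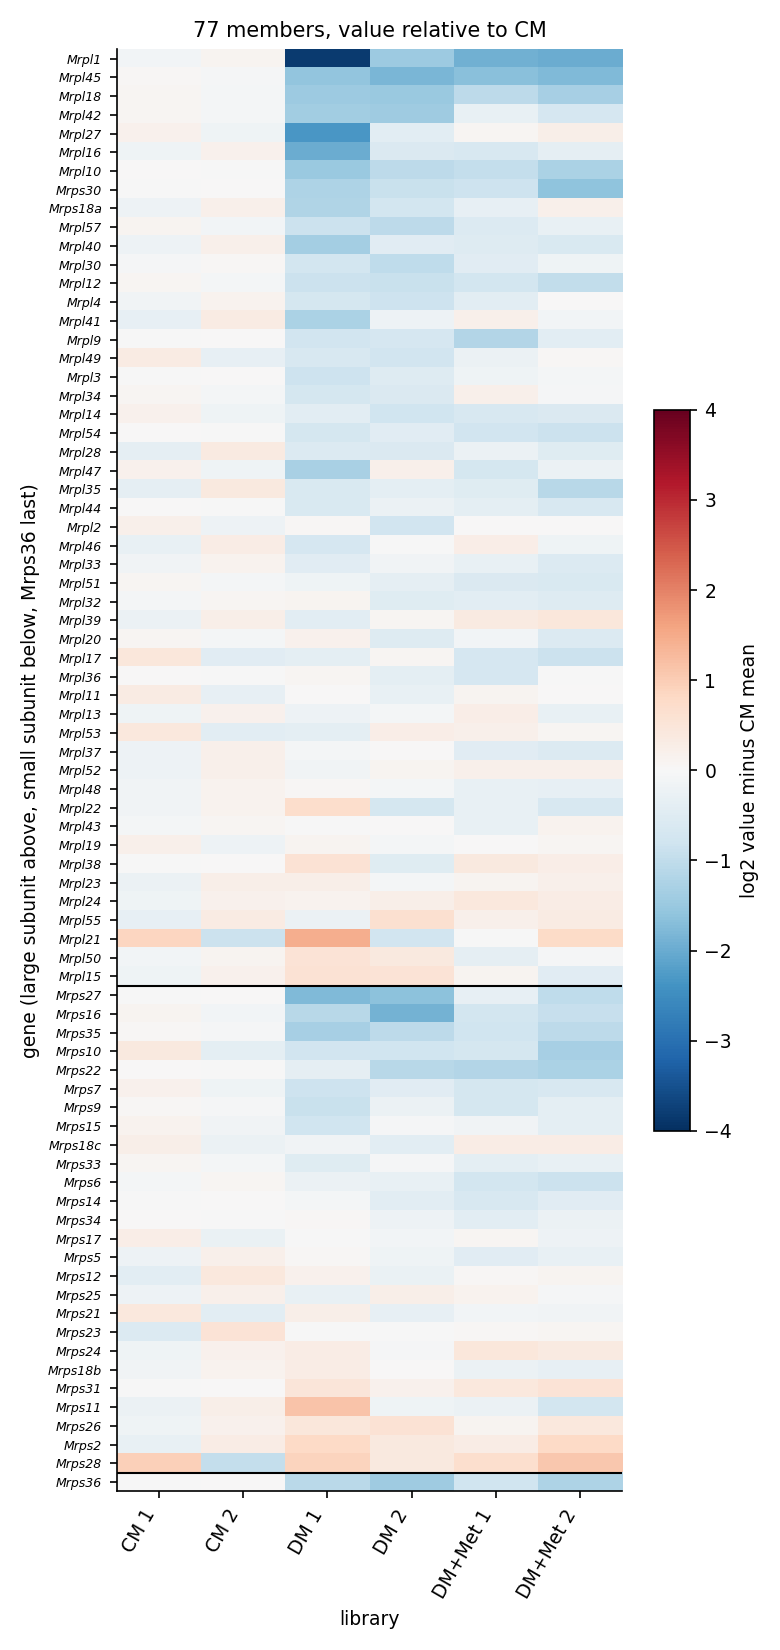
Value of each of the 77 genes in each of the 6 libraries as log2(TMM-scaled CPM + 1) minus the mean of the 2 CM libraries (colour scale). Rows run from the lowest to the highest change from CM to DM within the large subunit, the small subunit and Mrps36. Of the 77, 61 had a mean below CM in DM and 53 in DM+Met. For DM+Met the count is 33 when reads are scaled by library totals.

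None of the 77 genes passed the threshold in limma between DM+Met and DM. At an adjusted p below 0.05, 0 were higher and 0 lower in DM+Met than in DM (limma), where 0.0392% and 0.0157% of the tested rows were called higher and lower, 5 and 2 genes in all. At an unadjusted p below 0.05, 6 were higher and 0 lower. Of the alternatives, only scaling by library totals called a member, Mrpl34, as higher, and it called 55 of all tested rows. The median change was 0.08 beside 0.01 over all tested rows, with 45 estimates above 0. Both DM+Met libraries lay above both DM libraries for 22 of the 77 and below for 15, where 20.4% and 20.6% of all tested rows did so. By subunit the median was 0.11 in the large and -0.01 in the small subunit, and under library totals the median of the 77 was 0.42 beside 0.34 for all rows.

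The 13 genes lower in DM than in CM gave estimates from -0.16 to 1.03 between DM and DM+Met, and 10 lay above 0. That count shares the DM libraries with the comparison that chose the genes, so nothing is read from it. In the large subunit the changes were 0.92 ± 0.31 for Mrpl42, 0.73 ± 0.19 for Mrpl34, 0.70 ± 0.67 for Mrpl1, 0.57 ± 0.21 for Mrpl30, 0.53 ± 0.24 for Mrpl57, 0.28 ± 0.21 for Mrpl18, 0.16 ± 0.31 for Mrpl10, -0.0005 ± 0.25 for Mrpl12, -0.03 ± 0.20 for Mrpl45 and -0.16 ± 0.31 for Mrps30. In the small subunit they were 1.03 ± 0.49 for Mrps27, 0.68 ± 0.28 for Mrps16 and 0.28 ± 0.30 for Mrps35. None passed the test across all genes. The lowest adjusted p was that of Mrpl34, at 0.284 (limma), with a 95% interval of its change from 0.31 to 1.15. The intervals of Mrpl45, from -0.47 to 0.40, and of Mrpl12, from -0.56 to 0.56, reach from lower to higher levels, and under library totals the estimates were 0.33 and 0.35. Mrps18a, which was not called in DM, changed by 0.90 ± 0.39 (SE, adjusted p = 0.493, limma).

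Between DM+Met and CM, 6 of the 77 genes were lower in DM+Met and 0 higher at an adjusted p below 0.05 (limma), where 8.36% of all tested rows were called lower and 6.92% higher. The 6 of 77, or 7.79%, was thus near the background on the lower side. All 6 were large subunit genes, and in the small subunit 0 of 26 were called. Yet the medians were alike, at -0.32 in the large and -0.30 in the small subunit. Both DM+Met libraries lay below both CM libraries for 27 of 50 and 15 of 26 genes. The difference in calls was not tested. The median change of the 77 was -0.32 beside 0.06 over all tested rows, but it turned to 0.06 beside 0.41 under library totals, and was -0.21 beside 0.18 under totals without Rn45s. Relative to the median of all rows the 77 thus lay lower by 0.39, 0.35 and 0.38 in the 3 scalings. Both DM+Met libraries lay below both CM libraries for 43 of the 77 and above for 7, where 28.7% and 32.2% of all tested rows did so.

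Mrpl45 was at -1.73 ± 0.20, Mrpl18 at -1.19 ± 0.21 and Mrps30 at -1.22 ± 0.31 in DM+Met against CM (SE, adjusted p = 0.000496, 0.00478 and 0.0280, limma). Mrpl10 was at -1.10 ± 0.31 and Mrpl12 at -0.87 ± 0.25 (SE, adjusted p = 0.0418 and 0.0442, limma). The sixth was Mrpl54, for mL54, which is found only in mitochondria, at 63.7 and 62.0 CPM in CM, at 37.8 and 45.5 in DM and at 36.6 and 34.1 in DM+Met. Its change was -0.81 ± 0.23 against CM in DM+Met (SE, adjusted p = 0.0432, limma) and -0.59 ± 0.23 in DM (adjusted p = 0.112). The 6 genes had both DM+Met libraries below both CM libraries, and Mrpl45 was called in each of the 10 alternatives and with each library left out, Mrpl18 in 9 of 10 and in 3 of 6. Leaving out any CM or DM+Met library left 1 or 2 genes called. The other genes called in DM gave estimates, beside CM, of -1.95 ± 0.67 for Mrpl1, -0.92 ± 0.30 for Mrps35, -0.83 ± 0.28 for Mrps16, -0.67 ± 0.49 for Mrps27, -0.49 ± 0.31 for Mrpl42, -0.41 ± 0.24 for Mrpl57, -0.31 ± 0.21 for Mrpl30 and 0.08 ± 0.19 for Mrpl34. None of these 8 passed the test between DM+Met and CM, and their adjusted p in limma ran from 0.0653 for Mrps35 to 0.814 for Mrpl34. The SE pools the spread of all 3 media, and for Mrpl1 most of that spread lay in DM. Its 2 libraries differed by 2.38 on the log2 scale in DM, against 0.21 in CM and 0.08 in DM+Met. The 2 comparisons with CM share the CM libraries.

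**Figure D5:**
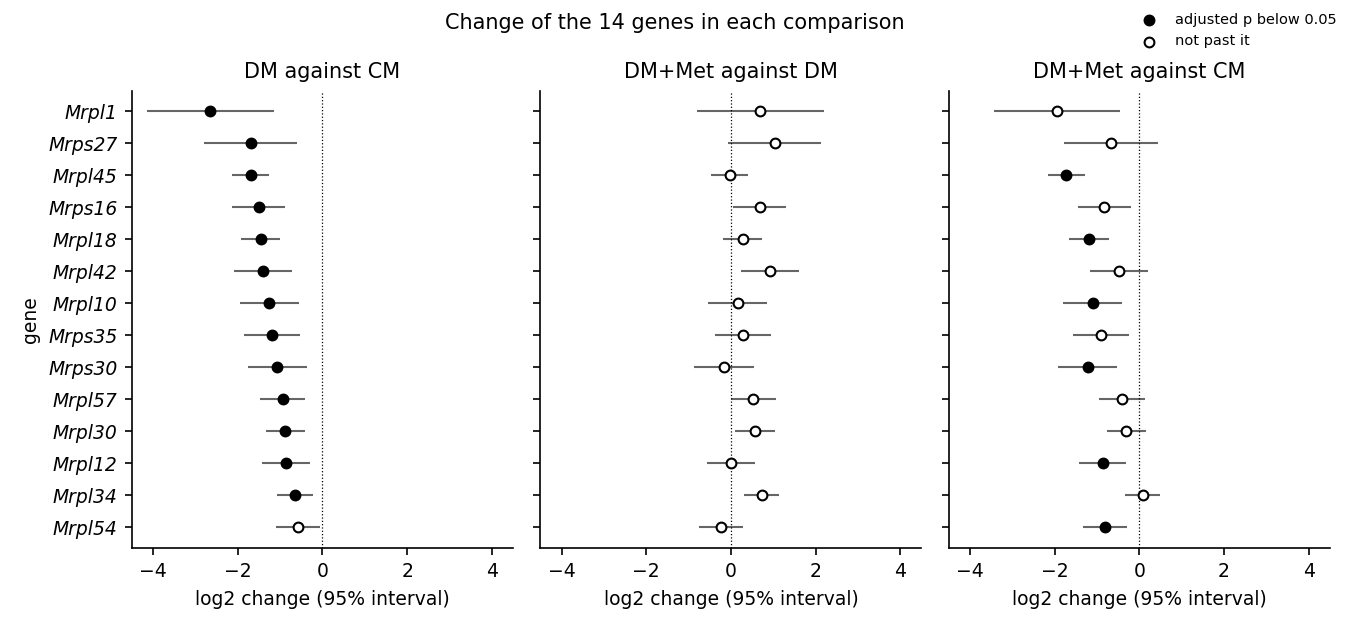
Log2 change with its 95% interval (x axis) of the 14 genes called in either comparison with CM, in each of the 3 comparisons. Filled points passed an adjusted p of 0.05 in limma and open points did not. In DM against CM, 13 are filled, in DM+Met against DM 0, and in DM+Met against CM 6. The sign of Mrpl30 in DM+Met against CM, and of Mrpl12, Mrpl45, Mrpl54 and Mrps30 in DM+Met against DM, turned when reads were scaled by library totals.

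Lists of genes that act with the mitochondrial ribosome were read beside the same background, 9.07% of all rows lower and 7.8% higher in DM. Their few calls are given as counts, and nothing is read from them about a list. Of 6 mitochondrial ribosome proteins with symbols outside the naming rule, 1 was called lower in DM than in CM and 0 higher, with a median change of -0.32. That gene was Chchd1, for mS37, at 93.2 and 107 CPM in CM, 56.7 and 58.3 under DM and 80.4 and 71.8 once methionine was added. DM was lowest and the media did not overlap, at -0.79 ± 0.20 from CM to DM (SE, adjusted p = 0.0245, limma). Of 27 genes for assembly of the ribosome and modification of its RNA, 0 were called lower and 1, or 3.70%, higher, with a median of -0.09. The one was Gtpbp10, a GTPase of large subunit assembly, at 1.48 and 0.640 CPM in CM against 10.0 and 4.86 in DM, a change of 1.99 ± 0.60 (SE, adjusted p = 0.0491, limma). Its 13 and 5 reads in CM make it a gene measured at low depth there.

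Of 15 mitochondrial translation factors 0 were called in either direction by limma between DM and CM, with a median of -0.28. The lowest p among them belonged to Mtfmt, which formylates the initiator methionyl-tRNA, at 25.6 and 14.9 CPM in CM, at 1.84 and 13.4 in DM and at 11.1 and 10.7 in DM+Met. Its change was -1.68 ± 0.69 (SE, adjusted p = 0.124, limma), and the 2 DM libraries lay far apart. Of 20 genes for mitochondrial tRNA synthetases and the amidotransferase, 0 were called lower and 2, or 10%, higher in DM, with a median of -0.14. Ears2, the glutamyl-tRNA synthetase, was at 0.569 and 0.640 CPM in CM, 13.1 and 16.1 under DM and 13.7 and 9.66 once methionine was added, a change of 3.27 ± 0.52 (SE, adjusted p = 0.00326, limma) from CM to DM. Gatc, a subunit of the amidotransferase that makes glutaminyl-tRNA, was at 3.64 and 3.46 CPM in CM, at 12.2 and 17.3 in DM and at 11.3 and 14.6 in DM+Met, a change of 1.77 ± 0.46 (SE, adjusted p = 0.0284, limma). Both genes lay above CM in each amino acid poor medium, without overlap, and Ears2 rested on 5 reads in each CM library.

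Of 15 genes for transcription and replication of mitochondrial DNA, 0 were called lower and 1, or 6.67%, higher, with a median of 0.35. Dguok, the mitochondrial deoxyguanosine kinase, was at 14.2 and 17.0 CPM in CM, 45.4 and 30.3 under DM and 48.7 and 54.2 once methionine was added, a change of 1.20 ± 0.30 (SE, adjusted p = 0.0240, limma). Of 11 regulators of mitochondrial biogenesis, 0 were called lower and 2, or 18.2%, higher in DM, with a median of 0.22. Myc, a transcription factor of cell growth, was at 12.2 and 10.9 CPM in CM, at 47.8 and 30.9 in DM and at 28.6 and 43.9 in DM+Met, at 1.66 ± 0.35 from CM to DM (SE, adjusted p = 0.0117, limma). Gabpb2, a partner of the ETS factor GABPA, was at 78.8 and 59.8 CPM in CM, 110 and 115 under DM and 95.2 and 98.7 once methionine was added, at 0.71 ± 0.20 (SE, adjusted p = 0.0380, limma). None of the genes in these lists was called between DM+Met and DM. The mRNAs of the mitochondrial genome matched none of the rows and were not analysed here.

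The 77 genes lie on 17 chromosomes. RefSeq promoter windows of 300 bases were found for 68 of them, without entries for Mrpl15, Mrpl54, Mrpl38, Mrpl13, Mrps34, Mrps28, Mrpl19, Mrps35 and Mrpl4. Letters of motifs linked with genes for mitochondrial proteins were searched on both strands. The ETS motif (CCGGAAG) was in 24 of 68 windows, or 35.3%, against 18.6% of the 9625 windows of tested genes and 9.12% of all 27025 windows. The motif AAGATGG, part of the site of YY1, was in 13 windows, or 19.1%, against 7.42% and 6.48%. The motif GCATGCG, part of the site of NRF-1, was in 8, or 11.8%, against 6.64% and 3.64%, and the E-box CACGTG, to which MYC binds, was in 5, or 7.35%, against 10.2% and 7.24%. No letters of these motifs overlapped in the 68 windows. Among the 12 windows of genes called lower in DM the ETS motif was in 5, or 41.7%, and among the 56 of genes not called it was in 19, or 33.9%. These are counts of letters, with no test, and they do not mark binding.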

How the data were processed

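CD4 T cell RNA (500 ng a library) was measured by 3′ tag sequencing in 6 libraries, 2 each in CM, DM and DM+Met. The submitters' processing notes name Bowtie2, bedtools and the mm10 build; versions, annotation and strand handling are not given in the sources used here. The authors deposited log2 values of TMM-scaled CPM plus 1, to 3 decimals. From their equal steps at least 99.8% of values in every library came out as whole reads (within 0.1 read, checked to 300 reads). A row was tested where at least 2 libraries reached 0.946 CPM (10 reads at median scaled depth) and reads totalled at least 15. limma 3.58.1 (R 4.3.3) with an intensity trend was fitted to the 6 libraries together, with Benjamini-Hochberg adjustment over 12770 rows and a threshold of 0.05. The fit was also run on simulated counts, with the same dispersion in every row and fewer changed rows than were called here. That run does not check the calls made on these libraries. The files held log2 values, the unit the design assumed. Libraries of one medium differed by more than sampling noise, so each counted once. Members and gene lists were chosen with earlier results of these data known. Named members were those called in a comparison, the 5 highest and 5 lowest by mean CPM, and members of special place or role; in other lists, called genes or those of lowest p. Same-numbered libraries did not deviate together (r from -0.030 to 0.005), so numbers were not used as pairs. Alternatives changed scaling, filter, pseudocount (0.1 or 5), model, libraries and block. Positions came from GENCODE on GRCm38 and promoters from RefSeq on GRCm38.p6.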

Additional observations from a re-analysis of the deposited data

How the results depend on the processing

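The count of members called lower in DM than in CM (13) fell to 8 under library totals without Rn45s, 5 without the intensity trend and 3 when only CM and DM were fitted, and to between 2 and 6 as each of the 6 libraries was left out, all of them lower in DM. Among all rows, 2154 calls became 2209, 1329 and 795 in those analyses, and 541 to 1061 with a library left out. The median change in DM against CM was -0.12 under library totals without Rn45s and from -0.41 to -0.27 with a library left out. For DM+Met against DM, library totals gave 1 call and a median of 0.42, with 55 calls among all rows where 7 were made as reported. Leaving out a library gave medians from 0.02 to 0.11. For DM+Met against CM (6 calls), there were 3 calls and a median of 0.059 under library totals, and 3 and -0.21 under totals without Rn45s. There were 2 with no filter, 10 where each library needed 10 reads, 1 without the trend and 3 with the replicate block. Among all rows, 1952 calls became 2701, 1907, 1265, 2080, 944 and 1797 in that order. With no filter 16972 rows were tested, and 9425 where each library needed 10 reads. Medians ran from -0.34 to -0.29 as each library was left out. The replicate block left 10 calls in DM against CM and 0 in DM+Met against DM, with 1947 and 7 among all rows. The numbers do not pair the libraries. The cause of these differences was not tested, except that fewer libraries or media leave fewer degrees of freedom.

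Reversals of single genes were looked for only among members named above, so the genes listed here are not all that changed sign. Those listed were not called where they reversed. Of the 77 estimates in DM against CM, 61 lay below 0 as reported and 48 under library totals without Rn45s. With library totals, 9 lay below 0 between DM+Met and DM, where 32 had done so as reported. Between DM+Met and CM the number was 33, where it had been 53. Among named members in DM against CM, under library totals without Rn45s, Mrps12 turned to 0.10, Mrps25 to 0.12 and Mrps34 to 0.071. With a library left out, Mrpl21 ran from -0.77 to 1.45, Mrpl32 from -0.47 to 0.12, Mrpl55 from -0.25 to 0.66, Mrps11 from -0.18 to 1.15, Mrps12 from -0.46 to 0.36, Mrps25 from -0.30 to 0.23 and Mrps34 from -0.20 to 0.037. In DM+Met against DM, library totals turned Mrpl12 to 0.35, Mrpl45 to 0.33, Mrpl54 to 0.13 and Mrps30 to 0.19, and Mrpl12 was at 0.0000 with a pseudocount of 5 and 0.0002 with limma-voom on recovered reads. There, with a library left out, Mrpl1 ran from -0.49 to 1.89, Mrpl10 from -0.0595 to 0.38, Mrpl12 from -0.13 to 0.13, Mrpl45 from -0.16 to 0.10 and Mrps30 from -0.56 to 0.24. In DM+Met against CM, Mrpl30 turned to 0.083 and Mrps18a to 0.32 under library totals, Mrps18a to 0.054 under totals without Rn45s, and with a library left out Mrpl34 ran from -0.0345 to 0.20 and Mrps18a from -0.34 to 0.22. Depth limits the least abundant members, with 13 reads in the lowest library value and 2 libraries a medium.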

Other observations

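Some members differed between the 2 libraries of one medium by more than 1 on the log2 scale: 3 of 77 in CM, 9 under DM and 0 with methionine. Of the 9, the first library was the lower in 5 and the second in 4. The median difference between the libraries of a medium was 0.32 in CM, 0.31 under DM and 0.23 with methionine for the 77 genes, and 0.39, 0.47 and 0.26 for all tested rows. The following genes were chosen after their values were seen. Mrpl27 was at 30.9 and 24.6 CPM in CM, at 4.69 and 20.2 in DM and at 29.1 and 32.6 in DM+Met. Mrpl16 was at 31.3 and 40.5 CPM in CM, 8.16 and 23.4 under DM and 22.7 and 27.5 once methionine was added. In both genes the first DM library was the lowest of the 6, as it was in Mrpl1. Mrpl21 was at 7.86 and 1.66 CPM in CM and 12.2 and 1.85 in DM, so that its spread within a medium was greater than its difference between media.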
